A study of Mus musculus with 4 samples.

Results

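The cells described here are 872 of 8718 classical monocytes from mouse bone marrow, those whose RNA held the largest share of transcripts of late G2 and mitosis. Every cell was scored by the percentage of its gene UMIs (unique molecular identifiers, each standing for 1 captured transcript) that came from 8 genes, Top2a, Mki67, Ube2c, Birc5, Nusap1, Ccnb2, Cenpa and Cdc20. The top 10% of each library was taken, which gave 749 of 7492 cells in the female library and 123 of 1226 cells in the male library. They are called G2/M cells here, and the remaining 7846 cells of the same mice are called the other cells. Since G2/M cells were chosen by their RNA, RNA differences between them and the other cells are described without a test. Tests were kept for the age of the mice and the antibodies on the cell surface, and values of the 8 score genes are a description there too.

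Wild-type C57BL/6 mice were compared at a young and an old age, with 5 mice in each group. Young males were 14 weeks old and old males 27 months, whereas young females were 15 weeks old and old females 26.5 months. Marrow cells of each mouse were tagged with their own hashtag antibody, pooled within a sex, and sorted by FACS for Ly6G- CD11b+ CD115+ cells with high Ly6C, the gate of classical monocytes. Each sex made up a single 10x Genomics library, so that sex and library cannot be told apart, and the mouse, read from the hashtag, was the replicate. The female library also recorded 6 surface antibodies.

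A cell in G2 has finished copying its DNA and accumulates cyclin B with its kinase Cdk1. In mitosis, condensins compact the chromosomes, kinetochores attach them to a spindle made of tubulin and kinesins, and a checkpoint holds them in place until the anaphase-promoting complex, with its activator Cdc20 and its ubiquitin-conjugating enzyme Ube2c, marks the cyclins and securin for destruction. In the marrow, monocytes arise from dividing progenitors and leave the cell cycle as they mature, and genes of azurophil granules, such as Elane and Mpo, are used by immature cells of this lineage.

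Promoters of many genes of G2 and mitosis carry CCAAT boxes, the site of the factor NF-Y, and a cell-cycle homology region with the core TTTGAA, whereas replication genes often carry an E2F site such as TTCCCGCC. The 130 bases upstream of the annotated start are printed 5′ to 3′ for 4 genes that were high in G2/M cells and for H2-Eb1, an MHC class II gene that changed with age in them, to show how these elements lie. The 4 were picked because they hold both elements in this stretch, whereas Ccnb1, Ccnb2, Cenpa and Plk1 hold CCAAT alone, Mki67 holds TTTGAA alone, and Birc5 and Nusap1 hold neither. Capitals mark CCAAT, which reads ATTGG on the other strand, and TTTGAA, which then reads TTCAAA. The sequences are from RefSeq on build GRCm38.p6, at chr11:99024190-99024319 (minus strand) for Top2a, chr2:164769799-164769928 (plus) for Ube2c, chr4:118437344-118437473 (minus) for Cdc20, chr10:69352913-69353042 (minus) for Cdk1 and chr17:34305737-34305866 (plus) for H2-Eb1.
Top2a: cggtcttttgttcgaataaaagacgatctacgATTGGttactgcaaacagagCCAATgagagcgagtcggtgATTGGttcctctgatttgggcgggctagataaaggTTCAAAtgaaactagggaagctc
Ube2c: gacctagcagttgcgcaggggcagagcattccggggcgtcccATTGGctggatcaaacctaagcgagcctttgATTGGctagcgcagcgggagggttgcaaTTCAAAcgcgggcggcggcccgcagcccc
Cdc20: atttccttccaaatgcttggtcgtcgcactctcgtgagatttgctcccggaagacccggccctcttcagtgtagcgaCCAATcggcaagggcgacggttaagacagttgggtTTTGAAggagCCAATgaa
Cdk1: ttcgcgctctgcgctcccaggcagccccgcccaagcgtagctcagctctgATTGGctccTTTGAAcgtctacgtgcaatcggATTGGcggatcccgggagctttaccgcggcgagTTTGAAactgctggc
H2-Eb1: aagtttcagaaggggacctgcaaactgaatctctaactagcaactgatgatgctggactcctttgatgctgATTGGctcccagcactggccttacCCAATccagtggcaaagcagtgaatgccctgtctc
In Top2a, DNA topoisomerase II alpha, 3 CCAAT boxes started at positions -98, -78 and -58 from the start site and the TTTGAA core at -23. Ube2c had CCAAT at -88 and -57 and the core at -29. In Cdc20 the core, at -18, stood between CCAAT boxes at -53 and -8, and Cdk1, the kinase of mitotic entry, held the core at -71 and -15. H2-Eb1 held CCAAT at -59 and -35 and no TTTGAA in this stretch.

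The 3 motifs were searched on both strands in the 300 bases from 250 before to 50 after each start. None of the 3 contains another. All 8 score genes were matched, and 6 of their 8 promoters held both CCAAT and TTTGAA (75%), compared with 6.95% of all 32851 promoters of the table. Of the spindle and kinesin genes, 19 of 22 were matched and 52.6% of promoters held both. The share was 60.0% for kinetochore and checkpoint genes (14 of 20 matched) and 46.2% for cytokinesis genes (10 of 11 matched). DNA replication genes, of which 36 of 45 were matched, had TTTGAA in 9.30% of promoters, against 17.9% of all promoters, and TTCCCGCC in 18.6%, against 2.19%. Promoters of the genes tested in females held TTTGAA in 12.4%, TTCCCGCC in 4.29% and both CCAAT and TTTGAA in 5.08%. These are matches of letters, and no binding was measured.

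The score ran from 0.536% to 1.18% of UMIs in female G2/M cells (median 0.648%) and from 0.326% to 0.978% in male ones (median 0.469%). The median of the other cells was 0.0345% in females and 0.0131% in males. There was no gap at the edge. The lowest G2/M cell had 0.5363% and the highest other cell 0.5361% in females, and the same pair was 0.3264% and 0.3229% in males. Within 20% of the lowest G2/M score lay 365 G2/M cells above and 437 other cells below in females, and 39 above and 54 below in males. G2/M cells were therefore the upper end of a range of cycling cells, and 1994 other female cells and 251 other male cells had scores over 25% of the lowest G2/M score.

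More UMIs were counted in G2/M cells. The median count was 15519 to 23367 UMIs per G2/M cell over the 10 female mice and 8018 to 13462.5 per other cell, with a median ratio of 1.81, and the G2/M cells were higher in 10 of 10 mice. In the 10 male mice the medians were 6433 to 9265 and 3698 to 8518.5 UMIs, with a median ratio of 1.67 and again 10 of 10 mice higher. No doublet caller was run. The leading hashtag had to hold 70% of a cell's hashtag counts, which lowers the number of droplets with cells of different mice and does not act on pairs from the same mouse. The median share of the leading hashtag was 82.9 to 93.3% in female G2/M cells and 85.1 to 93.9% in the other cells, and it was lower in the G2/M cells in 10 of 10 mice, with a median ratio of 0.986. In males it was lower in 5 of 10. The part of droplets with more than 1 cell in the UMI counts was not tested. When every cell was thinned to 2000 UMIs and scored again, 549 of the 749 female cells and 95 of 117 male cells then chosen had been G2/M cells at full depth.

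Genes of the sorted identity were abundant in G2/M cells. The 6 genes used to check for monocytes (Lyz2, Ly6c2, Ccr2, Csf1r, Cd14 and Fcgr3) summed to 21235 ± 572 CPM (counts scaled to the same total of UMIs for the summed cells of each mouse; SD, n = 10) in female G2/M cells and 27877 ± 3075 CPM in the other cells. Lyz2, lysozyme, was the most abundant at 17244 CPM. Ly6c2, which encodes the sorted antigen Ly6C, differed by a log2 of 0.11 and was higher in 9 of 10 female mice. Markers of other cell types were summed in the same way. The 8 neutrophil genes summed to 159 CPM, most of it Mmp8 (100.4 CPM), against 384 CPM in the other cells, where the granule gene Camp led. The sums were 13.1 CPM for T and NK genes, 20.8 CPM for B cell genes with Ms4a1 and Vpreb3 at 0, 52.2 CPM for plasmacytoid dendritic cell genes with Ccr9 at 0, 4.90 CPM for erythroid genes, 15.4 CPM for stem and progenitor genes and 0.737 CPM for basophil genes. Conventional dendritic cell genes summed to 67.5 CPM, 54.6 CPM of it from Cd209a, with Xcr1 at 0, and were higher than in the other cells (34.4 CPM). Cd209a is also listed below as a gene of dendritic-cell-like monocytes, so this sum does not tell such monocytes from dendritic cells. All 3 eosinophil genes were at 0 in 13450016 UMIs, which allows up to 0.223 CPM from a floor of 3 counts, for counting error only. In male G2/M cells the monocyte genes summed to 21264 CPM and the neutrophil genes to 122 CPM, against 30922 and 1787 CPM in the other cells. Conventional dendritic cell genes had a mean of 106 CPM (79.1 CPM in the other cells) but were lower in G2/M cells in 7 of 10 male mice, and the mean rested on old mouse 2 (195 against 13.4 CPM) and young mouse 2 (335 against 60.4 CPM). Basophil genes were at 31.9 CPM (171 CPM) and the eosinophil gene Prg2 at 20.8 CPM (20.4 CPM).

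As a description of what the score had selected, a gene was counted as higher or lower in G2/M cells when its median log2 difference in CPM over the 10 mice of a sex was at least 1 and the sign was the same in all 10. Of 9361 genes in females 239 (2.55%) were higher and 316 (3.38%) lower, and of 3262 in males 130 (3.99%) were higher and 27 (0.828%) lower. With every cell thinned to 2000 UMIs the lower genes of females were 168 and the higher genes of males 56, and without old mouse 4 the lower genes of males were 45. The median of all genes was 0.02 in females and -0.01 in males. Genes named from a list beyond its 6 most abundant members were picked after their values were seen.

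Genes that drive entry into mitosis were higher as a group, with 11 of 14 higher and 1 lower in females and a list median of 1.61. Cdc25b, a phosphatase that switches Cdk1 on, had a median log2 difference of 3.25, Ccnb1 (cyclin B1) 2.49, Plk1 (polo-like kinase) 2.16 and Cdk1 1.6, each higher in 10 of 10 mice. Ccna2, cyclin A2, which acts in both S phase and G2, differed by 1.78. Mybl2, a transcription factor that acts from S phase on, was the one lower gene at -1.30. Wee1 and Pkmyt1, kinases that hold Cdk1 inactive, differed by only 0.66 and 0.51.

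The mitotic machinery followed. Of the spindle and kinesin genes 20 of 22 were higher (median 1.86), led by Aspm, a spindle pole protein, at 2.87, Ckap2 at 2.52 and Hmmr at 2.37. Tubulin genes, which resting cells also use, stood nearer to the other cells, with Tubb5 at 1.08, Tuba1b at 1.01 and Tubb4b at 1.72. Kinetochore and checkpoint genes were higher in 19 of 20 (median 1.46), Cenpf at 2.79 and Cenpe at 2.14 the furthest, with Aurkb, the kinase that corrects faulty attachments, at 1.43. Of 15 condensin and chromatin genes 8 were higher (median 1.09), among them the condensin subunits Smc2 (1.40), Smc4 (1.41) and Ncapg (1.51), and 0 were lower. Cytokinesis genes were higher in 10 of 11 (median 1.88), such as Prc1, which bundles the central spindle, at 2.11 and Kif23 at 2.04. The exception was Pttg1, securin, at -0.18 and higher in 3 of 10 mice. In males the counts were 8 of 9 mitotic entry genes, 15 of 18 spindle genes, 15 of 18 kinetochore genes, 11 of 14 condensin and chromatin genes and 10 of 11 cytokinesis genes, and 0 of these were lower.

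DNA replication genes summed to less in G2/M cells than in the other cells as a whole, but to more than in the lower 50 to 100% of score ranks. Of 45, 19 were lower and 0 higher in females, with a median of -0.91 and a sum of 2475 ± 74.7 CPM in G2/M cells against 3928 ± 290 CPM in the other cells. The lowest were Ung, a uracil glycosylase, at -6.05, the cyclin E genes Ccne2 and Ccne1 at -3.89 and -3.00, and Cdc6, which loads the replicative helicase, at -3.14. Mcm6, a helicase subunit, was at -2.25. Rrm1, a ribonucleotide reductase subunit, at 0.19 and Usp1 at 0.37 were not lower, nor was 2810417H13Rik (0.11), the clamp-binding factor that alone gave 572 CPM of the sum. In males 5 of 26 were lower and 1 higher, 2810417H13Rik at 1.01, with a median of -0.51. Of the 749 female G2/M cells 0 and of the 123 male ones 2 (1.63%) also lay in the top 10% of their library by the summed share of DNA replication genes. The CDK inhibitors Cdkn2c and Cdkn2d were higher in females by 1.25 and 1.18 and in 10 of 10 mice, and Ccnd2, cyclin D2, was lower in 9 of 10 mice, with a median of -2.02.

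Placed along the whole score, the lists peaked in turn. Pooled over the cells of the female library, spindle and kinesin genes fell from 9019 CPM in the top 10% to 8180 CPM in the next 10%, 4481 CPM at ranks of 30 to 40% and 860 CPM in the lower 50 to 100%. Replication-dependent histone genes, which are used while DNA is copied, were highest at 10 to 20% (2120 CPM, compared with 1463 CPM in G2/M cells). DNA replication genes were highest at 30 to 40% with 6649 CPM, as were primary granule genes with 16038 CPM, whereas G2/M cells had 2490 and 4462 CPM and the lower 50 to 100% of ranks had 1315 and 3794 CPM, less than the G2/M cells. Genes of mature classical monocytes were at 28635 CPM in G2/M cells and at 57096 CPM in the lower 50 to 100% of ranks. The male library had the same order for spindle genes, which fell from 8116 to 735 CPM, and its DNA replication genes peaked at 30 to 40% with 6353 CPM. The male library differed in the histones, which were highest in the G2/M cells at 2706 CPM, and in the primary granule genes. These peaked at 20 to 30% with 20878 CPM and were lowest in the G2/M cells, at 2853 CPM against 5637 CPM in the lower 50 to 100%, the reverse of the female order. Male neutrophil genes moved with them, at 133 CPM in G2/M cells, 4032 CPM at 20 to 30% and 1017 CPM in the lower 50 to 100%. The bins pooled mice, and granule genes in the other cells of single males ran from 3828 to 29953 CPM, highest in old mouse 4. The part of neutrophil RNA and of that mouse in the male order was not tested. Median depth was 17342 UMIs in female G2/M cells and 16323 to 17872.5 UMIs in the next 3 bins, so that depth was alike there, and was 7731.5 UMIs in the lower 50 to 100%.

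**Figure D1:**
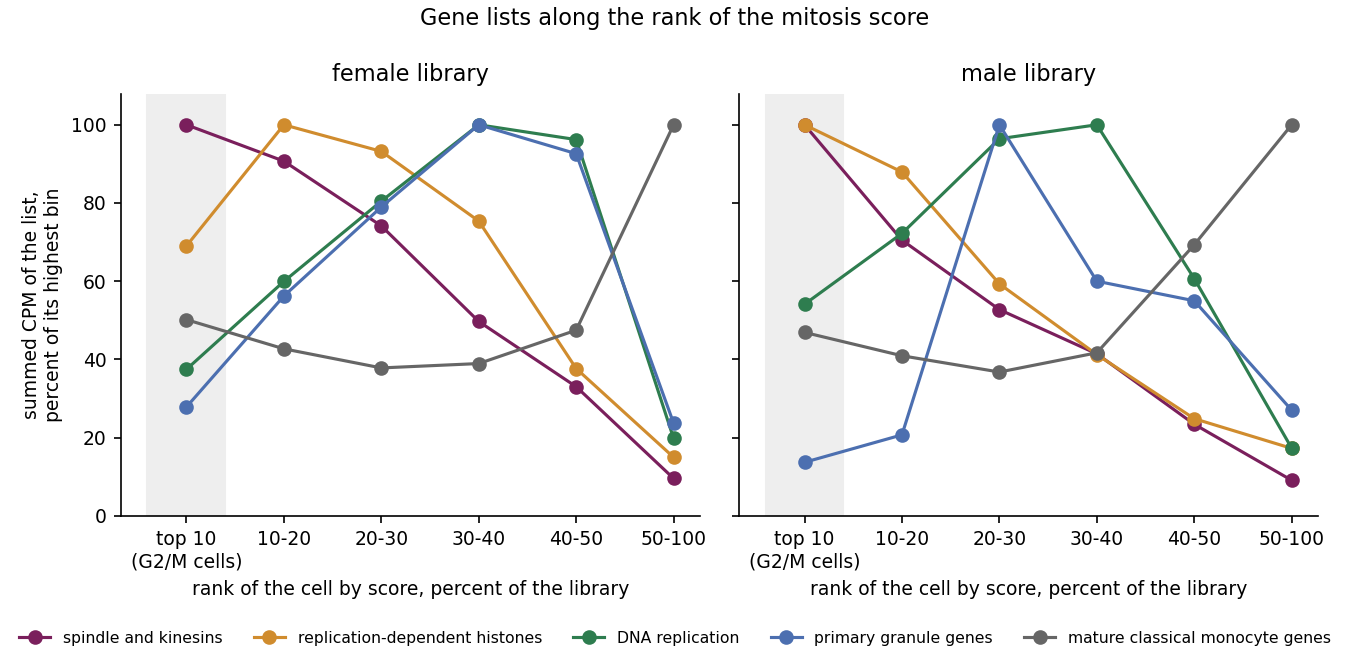
Summed CPM of 5 gene lists (y axis, as a percentage of the list's highest bin) in cells ranked by the score (x axis, percent of the library from the top), for the female and male libraries. The shaded bin holds the 749 female and 123 male G2/M cells. Spindle genes are highest there, DNA replication and primary granule genes peak in bins between 20 and 40%, and mature monocyte genes are highest in the lower 50 to 100%.

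Genes of the monocyte lineage went both ways in G2/M cells. Of 13 primary granule and neutrophil-like monocyte genes 6 were lower in females, with a median of -1.16. Mpo, myeloperoxidase, was at -2.17, Elane, neutrophil elastase, at -1.87, Ms4a3 at -2.68 and Prtn3 at -1.16, each lower in 10 of 10 mice. Chil3, which is also used by mature classical monocytes, was higher in 9 of 10 mice at 0.31. Mature classical monocyte genes had a median of -0.32, with Wfdc17 lower (-1.10) and Fn1, fibronectin, higher in 10 of 10 mice at 0.34. Of the fate regulators, Nr4a1, the factor that Ly6C-low monocytes require, was lower at -1.72 and Myb, a factor of progenitors, at -1.68, whereas Spi1, the master factor of the lineage, stood at 0.15. Klf4, which promotes monocyte differentiation, was higher in 10 of 10 mice of each sex, at 0.61 in females and 0.63 in males. Apoe and Ace of the Ly6C-low list were lower at -2.78 and -4.83, whereas Spn, which encodes CD43, was higher at 1.04.

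Some antigen presentation and interferon genes were lower in G2/M cells than in the other cells as a whole. Cd74, the chaperone of MHC class II, was lower in 10 of 10 female mice, at -1.26, and the list of 13 MHC-II and dendritic-cell-like monocyte (DCMo) genes had a median of -0.59. Cd209a, the marker of DCMo, was the highest of that list in females at 1.03 and was higher in 8 of 10 mice, whereas in males it was at -0.43 and higher in 2 of 10. Of 13 interferon-stimulated genes 6 were lower (median -0.73), Ifit3 the lowest at -3.92. Along the score ranks the female G2/M cells were not the lowest for either list. The summed MHC-II and DCMo genes were at 1655 CPM in female G2/M cells, at 1327, 943, 1045 and 1376 CPM in the next 4 bins of 10% and at 5244 CPM in the lower 50 to 100%, and the interferon-stimulated genes at 493 CPM, at 362, 301, 320 and 426 CPM and at 1238 CPM. In the male library the interferon-stimulated genes were lowest in the G2/M cells, at 171 CPM, with 203, 184, 234 and 414 CPM in the next 4 bins and 988 CPM in the lower 50 to 100%. Of the 9 genes that the study named, 1 was lower, Cd74. Immediate early genes had 1 of 10 lower, Atf3 at -1.82, and a median of -0.23.

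**Figure D2:**
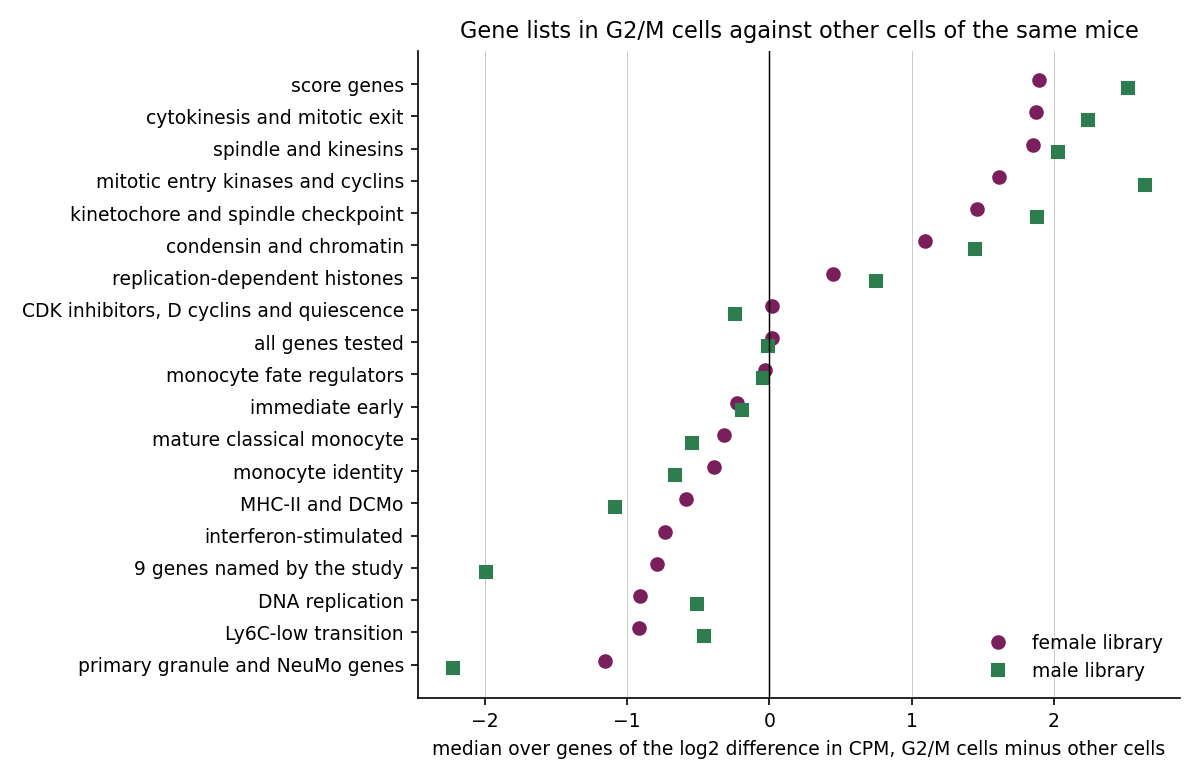
Median over genes of the log2 difference in CPM between G2/M cells and the other cells (x axis) for each gene list with at least 5 genes tested, females as circles and males as squares. The 5 mitotic lists lie between 1.09 and 2.64, all genes lie at 0.02 and -0.01, and DNA replication and granule genes lie below 0 in both libraries.

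Outside the lists, 10 higher and 10 lower genes were named by size among those with at least 50 CPM and the same sign in all 20 mice. The higher ones in females were Fam64a (2.40), Nek2 (2.32), C330027C09Rik (2.21), Gas2l3 (2.19), Arhgef39 (2.18), Kpna2 (2.15), Depdc1a (2.12), Cdkn3 (2.04), Arhgap19 (1.96) and Trim59 (1.83). Nek2 is a kinase of centrosome separation, Kpna2 an importin that also acts in spindle assembly, and Cdkn3 a phosphatase of CDKs. The lower ones were Srm (-3.25), Cdca7 (-2.88), Hpgd (-2.49), Lpl (-2.21), Gar1 (-1.79), Apex1 (-1.60), Mt1 (-1.59), Srgn (-1.48), Tomm40 (-1.04) and Hspa9 (-1.03). Srm makes spermidine, Gar1 is part of the particles that modify ribosomal RNA, Tomm40 and Hspa9 serve protein import into mitochondria, and Srgn is the proteoglycan of granules. Of the 158 female genes that were higher outside the lists, 126 were matched to promoters and 26.0% of the promoters held both CCAAT and TTTGAA, compared with 3.40% for the lower genes and 5.08% for all genes tested.

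Surface antibodies were a readout that the score did not use, and were compared over the 10 female mice. Ly6C, CD11c and CD115 counts per cell were higher on G2/M cells, whereas MHC-II, Flt3 and CD11b did not pass the test. Mean Ly6C counts on G2/M cells were 540, 605, 648, 691 and 811 UMIs in old mice 1 to 5 and 770, 814, 845, 742 and 761 UMIs in young mice 1 to 5. On the other cells they ran from 452 to 564 UMIs. G2/M cells were higher in 10 of 10 mice, by a log2 of 0.44 ± 0.12 (SD, n = 10), a fold of 1.36, with p = 0.00195 by a two-sided exact sign-flip permutation test, the smallest it can give, and an adjusted p of 0.0059 over 6 antibodies.

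CD11c, an integrin of dendritic cells and monocytes, was higher in 9 of 10 mice, by 0.51 ± 0.34 (exact permutation p = 0.0039, adjusted 0.0078). Its level was low, at 1.69 to 10.2 UMIs per G2/M cell and 1.38 to 6.92 per other cell, and old mouse 1 was the exception at -0.03. CD115, the receptor for the growth factor CSF1, was higher in 10 of 10 mice, by 0.25 ± 0.14 (exact permutation adjusted p = 0.0059). Its RNA, Csf1r, was lower in 10 of 10 mice at a median of -0.49 in CPM, a share of the UMIs. The antibody value is a count per cell, and G2/M cells held more UMIs, with a median ratio of 1.81. The directions of RNA and antibody therefore cannot be set against each other. Flt3 differed by 0.13 (7 of 10 mice, exact permutation adjusted p = 0.075), CD11b by -0.14 (higher in 3 of 10, adjusted 0.056) and MHC-II by -0.13 (higher in 5 of 10, adjusted 0.59). For MHC-II the G2/M cells were lower in 4 of 5 old mice (mean -0.48) and higher in 4 of 5 young mice (mean 0.23), a difference between ages with an exact permutation p of 0.063 (adjusted 0.14).

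The summed hashtag counts, which mark no lineage, were also higher on G2/M cells, by 0.17 and in 9 of 10 mice. In cells of matched depth (14422 to 20853 gene UMIs, 375 G2/M and 1132 other cells) the hashtag difference was 0.06. Ly6C kept its direction there at 0.25 (10 of 10 mice, exact permutation adjusted p = 0.0059), as did CD11c at 0.64 (10 of 10, adjusted 0.0059). CD115 turned to -0.115 (higher in 3 of 10, adjusted 0.073), and CD11b turned to 0.18 (9 of 10, adjusted 0.027) and MHC-II to 0.17 (8 of 10, adjusted 0.044). Median depth was 16323 to 17872.5 UMIs at score ranks of 10 to 40% and 7731.5 UMIs in the lower 50 to 100%. Matching by depth thus also changed which other cells were compared, and the part of score rank in these shifts was not tested. Ly6C, CD115 and CD11b were sort markers, so the antibody values hold only within the gate. Age did not separate the antibody counts of G2/M cells at the threshold. Ly6C differed between old and young mice by -0.27 (exact permutation p = 0.032, adjusted 0.19), while the hashtags differed by -0.33, and the 5 other antibodies had adjusted p-values of 0.43 to 0.94.

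**Figure D3:**
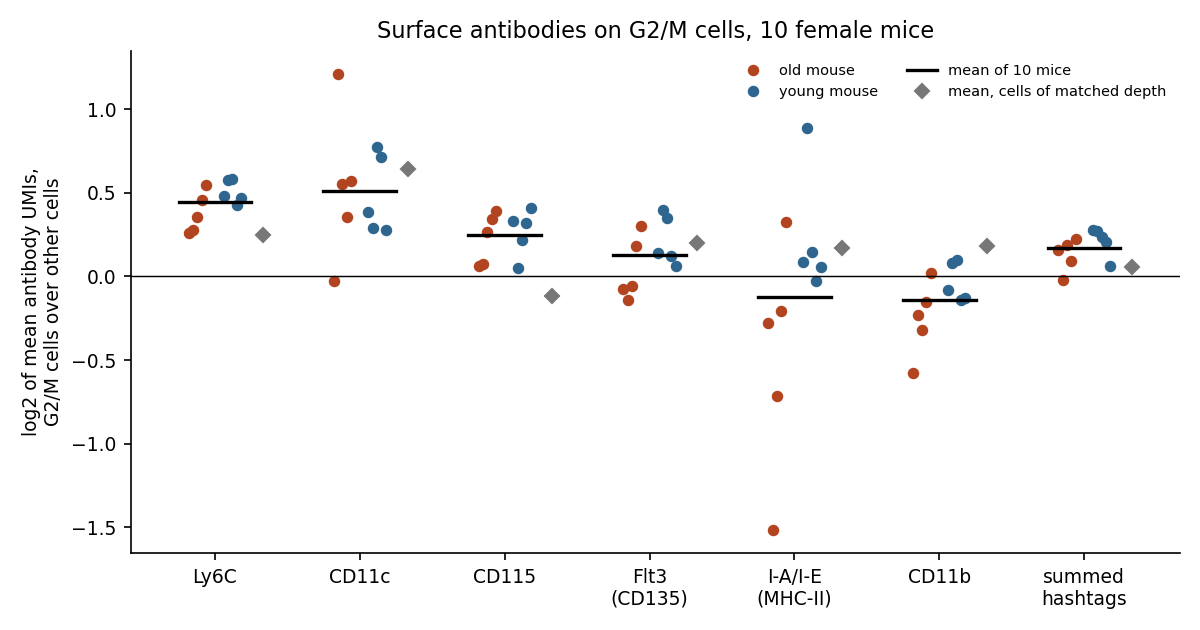
Log2 of the mean antibody UMIs on G2/M cells over those on the other cells of the same mouse (y axis) for 6 antibodies and the summed hashtags (x axis). Points are 10 female mice (5 old, 5 young), lines are their means, and diamonds are the means in cells of matched depth, where CD115 moves from 0.25 to -0.115 and CD11b from -0.14 to 0.18.

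G2/M cells made up 10% of each library by rule. The share of a mouse therefore tells how they were spread over the mice, not the fraction of its monocytes in G2 or mitosis. That share did not pass the test between ages, and the sign of the female difference depended on the settings. In old female mice 1 to 5 it was 9.34% (47 of 503 cells), 12.8% (55 of 429), 12.2% (126 of 1031), 8.59% (95 of 1106) and 8.0% (40 of 500). In young females it was 9.14% (56 of 613), 8.99% (48 of 534), 9.88% (24 of 243), 9.85% (177 of 1797) and 11% (81 of 736). The groups overlapped, with means of 10.2% ± 2.19 and 9.77% ± 0.80 (SD, n = 5), a difference of 0.42 points and p = 0.69 by a two-sided exact permutation test (adjusted 0.77 over both sexes). Depth moved with age, since the median G2/M cell had 17415 to 23367 UMIs in old and 15519 to 16474 UMIs in young females, and with every cell thinned to 2000 UMIs before scoring the difference in share was 0.90 points in females (exact permutation p = 0.61) and 5.0 in males (exact permutation p = 0.65). With cells kept only where the leading hashtag held 90% of a cell's hashtag counts, the female difference was -2.63 points (exact permutation p = 0.063, adjusted 0.13).

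In males the shares were 10.2% (21 of 206 cells), 6.90% (8 of 116), 8.08% (8 of 99), 30.6% (15 of 49) and 8.93% (5 of 56) in old mice 1 to 5, and 8.47%, 5.97%, 10.7%, 11.8% and 10.7% in young mice 1 to 5. Old mouse 4 stood apart, with an exact 95% binomial interval of 18.3 to 45.4%, which covers counting error only. Its other cells stood apart too, with 6313 CPM of neutrophil genes (125 to 4369 CPM in the other 9 males), 29953 CPM of primary granule genes (3828 to 16942) and 12881 CPM of monocyte genes (21883 to 38248), and a median of 8518.5 UMIs (3698 to 6187), and their part in the share was not tested. The means were 12.9% ± 9.95 and 9.53% ± 2.33 (SD, n = 5; exact permutation p = 0.77, adjusted 0.77), and without that mouse the difference of 3.42 points became -1.0. The smallest p that 5 against 5 mice allow is 0.0079.

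**Figure D4:**
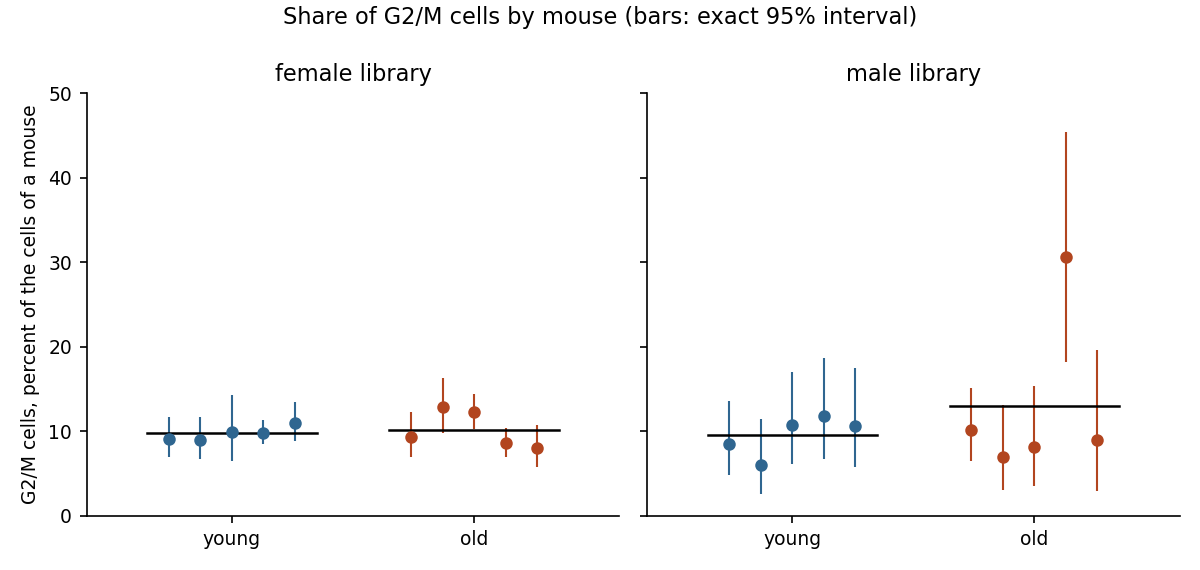
G2/M cells as a percentage of a mouse's cells (y axis) by age (x axis) and library. Points are single mice with exact 95% binomial intervals and lines are group means. Old and young overlap in both libraries, and 1 old male mouse, with 15 of 49 cells, lies at 30.6%.

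RNA of G2/M cells differed between old and young females. Counts were summed over the G2/M cells of each mouse (374090 to 2983578 UMIs) and tested with edgeR's quasi-likelihood test with Benjamini-Hochberg adjustment over 7227 genes. At an adjusted p below 0.05, 124 genes passed (1.72%), of which 87 rose (1.2%) and 37 fell (0.512%) with age. In 82 of the 124 the values of old and young mice did not overlap, 60 higher and 22 lower. Overlap was counted only among these called genes and not over all 7227, so it is no further support for the calls. Among those described here, Cd74, H2-Aa, B2m, H2-K1, Isg15 and Fcgr1 rose, and Jun, Fosb, Dusp1 and Klf4 fell. Of the same 124 genes, 123 had the same sign in the other cells, where 423 of 10232 genes passed (4.13%), and 87 passed in both, 70.2% of the calls in G2/M cells and 20.6% of those in the other cells. Both comparisons used the same mice. The median depth of G2/M cells was higher in every old than in every young female mouse. The median share of the leading hashtag was lower in every old one, at 82.9 to 89.3% in old and 89.8 to 93.3% in young mice. The part of depth and of the hashtag share in these calls was not tested.

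All 9 genes that the study named for monocytes passed, beside 1.72% of all genes, with a median log2 fold change of 2.18. The study chose them on these mice, so this is not independent evidence of their direction. Cd74 was at 3358, 759, 305, 322 and 1288 CPM in the G2/M cells of old mice 1 to 5 and at 176, 212, 98.9, 175 and 223 CPM in young mice 1 to 5. Every old mouse lay above every young one, and the old mice spread over a far wider range. The log2 fold change was 2.70 ± 0.46 (SE), with an adjusted p of 0.0019. H2-Aa, an alpha chain of MHC class II, was at 945, 240, 102, 75.5 and 468 CPM in old and 46.6, 56.7, 18.7, 38.5 and 53.8 CPM in young mice (2.97 ± 0.53, adjusted p = 0.0028). H2-Ab1 and H2-Eb1, beta chains, rose by 3.12 ± 0.60 and 3.29 ± 0.70 (adjusted p = 0.0055 and 0.012). Without old mouse 1, the highest, the changes of Cd74, H2-Aa, H2-Ab1 and H2-Eb1 were 1.79, 2.15, 2.30 and 2.51, and each still passed. H2-Eb1 did not pass without young mouse 4 (3.16). H2-DMb1, which helps load peptides, rose too (0.83 ± 0.21, adjusted p = 0.044). Thus 5 of 9 MHC-II and DCMo genes tested had risen and 0 fallen, beside 1.2% and 0.512% of all 7227 genes. Of these 5, all but H2-DMb1 were also among the genes that the study named.

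How the MHC-II RNA was spread over cells differed between mice. Cd74, H2-Aa, H2-Ab1 and H2-Eb1 together were at a median of 3787 CPM per G2/M cell in old mouse 1, and the top 10% of its 47 G2/M cells held 35.2% of these UMIs. In the other 9 female mice the median G2/M cell was at 54.5 to 134 CPM and the top 10% held 60.0 to 93.7%. The median other cell of old mouse 1 was also high, at 5748 CPM. In old mouse 5, the second highest for Cd74, 4 of 40 cells held 93.7%. This description was added after the values had been seen.

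Other genes of antigen presentation were among the 9 named by the study. B2m, beta-2 microglobulin, which pairs with MHC class I, was at 1593, 1369, 1204, 1135 and 1299 CPM in old and 971, 908, 1048, 965 and 929 CPM in young mice (0.45 ± 0.07, adjusted p = 0.00082), without overlap. H2-K1 rose by 0.76 ± 0.12, Psmb8, a subunit of the immunoproteasome, by 0.54 ± 0.09. H2-Q7 was at 238, 129, 59.0, 68.7 and 95.5 CPM in old and 31.1, 23.4, 29.4, 29.8 and 20.6 CPM in young mice, and rose by 2.04 ± 0.32. Reads of H2-Q7 may be shared with near-identical neighbours of its family. AW112010, a long noncoding RNA, was at 363, 73.0, 74.7, 91.8 and 132 CPM in old and 39.9, 21, 21.4, 34.9 and 27.3 CPM in young mice (2.18 ± 0.38, adjusted p = 0.0026). Without old mouse 1 its change was 1.54, and it still passed. C130026I21Rik (2.76 ± 0.25, adjusted p = 6.3e-07) and A530032D15Rik (1.46 ± 0.30) are related to Sp100 and belong to a multigene family whose reads may be split between copies, so their values are uncertain.

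Fcgr1, the high-affinity receptor for IgG, was at 128, 124, 88.1, 60.8 and 120 CPM in old and 35.5, 23.4, 24.1, 34.9 and 31.0 CPM in young mice. The groups did not overlap, at 1.66 ± 0.18 (adjusted p = 6.0e-06). Of 8 interferon-stimulated genes tested 4 rose and 0 fell, beside 1.2% and 0.512% of all 7227 genes. Among those that rose were Isg15 by 1.33 ± 0.28, Zbp1 by 1.13 ± 0.20 and the GTPase gene Ifi47 by 0.93 ± 0.20. Oas3, an antiviral oligoadenylate synthetase, rose by 1.84 ± 0.39, but it and A530032D15Rik did not pass without young mouse 4 (1.94 and 1.30). Chil3 rose by 1.01 ± 0.22, from 809 to 1588 CPM in young to 1291 to 3688 CPM in old mice. Of 14 mature classical monocyte genes Ifitm3, Vcan and Wfdc17 rose and Fn1 fell (-0.35 ± 0.09, adjusted p = 0.037), beside the same shares of all genes.

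Immediate early genes, which cells switch on within minutes of a stimulus, fell in 6 of 9 tested (Fos, Fosb, Jun, Jund, Dusp1 and Zfp36), and Nfkbia rose (0.71 ± 0.12). Of all 7227 genes 0.512% fell and 1.2% rose. Jun was at 144, 121, 119, 95.7 and 63.3 CPM in old and 196, 226, 249, 207 and 238 CPM in young mice, a change of -1.01 ± 0.12 (adjusted p = 3.5e-05). Fosb fell from 35.5 to 54.5 CPM in young to 6.76 to 20.2 CPM in old mice (-1.43 ± 0.21, adjusted p = 0.00042), and Dusp1, a phosphatase of MAP kinases, changed by -1.03 ± 0.17. Klf4 was at 334, 327, 373, 385 and 268 CPM in old and 441, 508, 527, 511 and 500 CPM in young mice (-0.54 ± 0.08, adjusted p = 0.00031). Btg2, which restrains proliferation, changed by -0.66 ± 0.10 and Rhob, a small GTPase, by -0.60 ± 0.12, with the old mice below the young ones for each. Cpd (-0.83), Zbtb18 (-0.81), Otof (-0.79) and Ppfibp2 (-0.66), at 6.44 to 30.0 CPM, passed with adjusted p-values of 0.043 to 0.049 and lost the call in 8 to 10 of the 10 fits that left out 1 mouse.

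**Figure D5:**
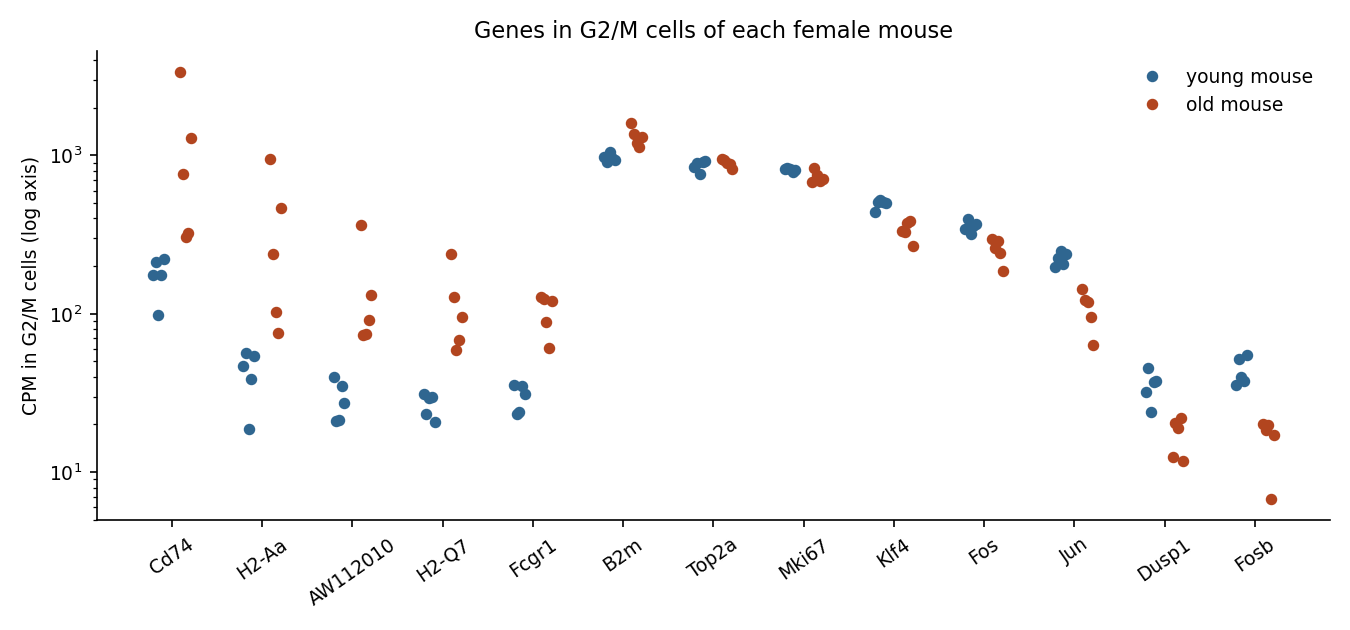
CPM (y axis, log scale) of 13 genes in the G2/M cells of each female mouse, young and old. MHC-II genes, AW112010, H2-Q7, Fcgr1 and B2m lie higher in all 5 old mice, Klf4, Fos, Jun, Dusp1 and Fosb lie lower, and the score genes Top2a and Mki67 lie between 675 and 945 CPM in both groups.

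The level of mitotic genes in G2/M cells was bounded by the choice of cells, so their age effects are read with that limit. In edgeR 0 of 13 mitotic entry, 0 of 22 spindle, 0 of 20 kinetochore, 1 of 15 condensin and chromatin and 0 of 11 cytokinesis genes passed, beside 1.72% of all genes. At an unadjusted p below 0.05 the counts were 0, 6, 2, 4 and 0, and DESeq2 called 1 gene of the condensin and chromatin list and 0 in the others. The changes were mostly negative, with 2 of 13, 4 of 22, 2 of 20, 2 of 15 and 2 of 11 positive, beside 3460 of all 7227 genes, and the list medians were -0.11 to -0.04 beside -0.01 for all genes. Top2a was at 822 to 945 CPM in old and 765 to 921 CPM in young mice. Nusap1, a spindle protein and itself one of the score genes, changed by -0.24 and H2afv, a histone variant, by -0.26 ± 0.06 (adjusted p = 0.019). Of 17 replication-dependent histone genes, 0 had a positive change and 1 passed, Hist1h1c (-0.64 ± 0.13, adjusted p = 0.0065), with a median of -0.36. At an unadjusted p below 0.05 there were 10 of the 17, beside 851 of all 7227 genes, and DESeq2 called 1. Of 38 DNA replication genes 0 passed (2 at an unadjusted p below 0.05, 0 in DESeq2), with a median of 0.03.

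The count of 124 moved with single mice, to 78, 70, 54 and 61 without young mouse 1, 2, 4 and 5, and stayed between 95 and 147 without any other mouse. DESeq2 called 97 genes, G2/M cells chosen after thinning gave 114, and 851 genes had an unadjusted p below 0.05 in edgeR. The count moved further with a leading hashtag of 90% (33), in the top 5% of each library (78) and without a filter on low counts (259). The 90% limit left 3 G2/M cells in old mouse 5.

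In males the G2/M cells of a mouse held 44293 to 141247 UMIs, and 1 of 1376 genes passed (0.0727%; 73 at an unadjusted p below 0.05). It was AW112010, at 120, 228, 176, 156 and 226 CPM in old mice 1 to 5 and 59.4, 35.3, 52.7, 58.1 and 23.7 CPM in young mice 1 to 5. The groups did not overlap, and the log2 fold change was 1.77 ± 0.31 with an adjusted p of 0.0061 in edgeR. Without young mouse 5 it was 1.63 and 0 genes passed, and 0 passed either with G2/M cells chosen after thinning (lowest adjusted p = 0.13 in edgeR) or with a leading hashtag of 90% (lowest adjusted p = 0.29 in edgeR). Cd74 in male G2/M cells was at 28.3 to 1464 CPM in old and 23.7 to 1959 CPM in young mice, and its change of -0.18 ± 0.74 (adjusted p = 0.98) has an error that spans changes of either sign. B2m and H2-K1 had changes of 0.45 ± 0.12 and 0.57 ± 0.17 that did not pass (adjusted p = 0.42 and 0.50). The sex by age interaction in G2/M cells was tested over 4066 genes, and 0 passed in edgeR (0%; 208 at an unadjusted p below 0.05, and 1 in DESeq2). For AW112010 the difference was 0.38 (adjusted p = 0.99).

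Whether the age effect in G2/M cells differed from that in the other cells of the same mice was tested with the mouse as a block. In females 7 of 9361 genes passed (0.0748%; 578 at an unadjusted p below 0.05, and 4 in DESeq2), 4 with a higher and 3 with a lower effect in G2/M cells. Fcgr1 rose more in G2/M cells, by 1.66 compared with 0.73 in the other cells, a difference of 0.90 ± 0.16 (adjusted p = 0.0096). In the other cells Fcgr1 was at 94.0 to 120 CPM in old and 59.6 to 64.7 CPM in young mice, so the young G2/M cells, at 23.4 to 35.5 CPM, were the lowest of the 4 sets.

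Cd209a differed by 1.46 ± 0.24 (adjusted p = 0.0033). It was at 15.4, 122, 21.7, 32.1 and 115 CPM in old and 82.1, 34.5, 18.7, 47.9 and 56.8 CPM in young G2/M cells, which overlapped, and at 3.50 to 21.7 CPM in old and 28.3 to 45.1 CPM in young other cells, which did not. The other cells fell with age (-1.51 ± 0.27, adjusted p = 0.0065), whereas G2/M cells changed by 0.05 ± 0.39. The 5 conventional dendritic cell genes, among which Cd209a was the most abundant, summed to 21.2 to 144 CPM in old and 34.8 to 89.9 CPM in young G2/M cells, and to 8.82 to 29.7 and 38.0 to 58.6 CPM in the other cells. Cd209a is itself part of these sums, so they move with it by construction. A sum without Cd209a is not given, and the part of dendritic cells in the result was not tested.

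S100a9 and S100a8, the subunits of calprotectin, differed by 3.01 ± 0.35 (adjusted p = 1.22e-05) and 1.36 ± 0.26 (adjusted p = 0.019). S100a9 was at 212, 18.5, 198, 58.6 and 27.9 CPM in old and 37.7, 17.3, 115, 47.9 and 24.3 CPM in young G2/M cells. In the other cells it was at 85.6, 37.3, 474, 53.4 and 57.1 CPM in old and 486, 296, 1401, 255 and 456 CPM in young mice. The gap between ages thus lay mainly in the other cells, and neutrophil genes moved with it. Their 8-gene sum in the other cells was 143, 138, 397, 178 and 107 CPM in old and 407, 305, 1471, 288 and 403 CPM in young mice, with Camp the most abundant, and it stayed at 132 to 198 CPM in all G2/M cells. The sort took Ly6G- CD115+ cells, a gate that would remove neutrophils, and the part of neutrophil RNA in the S100a9 result was not tested. Without old mouse 3 the S100a9 difference was 3.67. Neither age effect passed by itself (adjusted p = 0.15 in G2/M cells and 0.087 in the other cells).

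Casc5, a kinetochore scaffold (-0.49 ± 0.09, adjusted p = 0.0096), the tubulin Tubb4b (-0.40 ± 0.08, adjusted p = 0.018) and Ube2c (-0.40 ± 0.08) had lower age effects in G2/M cells than in the other cells. The age effects were -0.30 for Casc5, -0.13 for Tubb4b and -0.12 for Ube2c in G2/M cells, and 0.18, 0.28 and 0.28 in the other cells, where Tubb4b passed the age test by itself (edgeR adjusted p = 0.044). Ube2c is a score gene whose level was bounded by the choice, so its term is a description. The 8 score genes summed to 1887, 2044, 1600, 1606 and 1741 CPM in the other cells of old mice 1 to 5 and to 1499, 1579, 1618, 1572 and 1479 CPM in those of young mice 1 to 5, and the groups overlapped. The age effect in the other cells was positive for 21 of 22 spindle, 20 of 20 kinetochore and 13 of 14 mitotic entry genes, beside 5004 of all 10232 genes. Of 22 spindle genes 0 had a positive difference, with a median of -0.29 for G2/M minus other cells, and the cells had been chosen by a score of genes of the same kind. Interferon-stimulated genes went the other way, with 13 of 13 positive and a median of 0.79, beside 4620 of all 9361 genes. Of these 13, 12 had an unadjusted p below 0.05 in edgeR and 0 passed. Their median age effect in the other cells was 0.23, over 14 genes tested. Leaving out 1 mouse gave 2 to 46 called genes, with 4 without old mouse 1, 46 without old mouse 3, 14 without old mouse 4, 4 without young mouse 1 and 2 without young mouse 5. S100a9 and Cd209a passed in every one of these 10 fits. Fcgr1 (0.90) and Casc5 (-0.45) did not pass without young mouse 5, S100a8 did not pass in 5 of the fits and Tubb4b and Ube2c did not in 6 and 7. With G2/M cells chosen after thinning, S100a9 (2.00), Fcgr1 (0.63), Casc5 (-0.32) and Tubb4b (-0.38) did not pass, and Cd209a did not in DESeq2 (1.6). In males 0 of 3262 genes passed (0%; 178 at an unadjusted p below 0.05, and 0 in DESeq2).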

How the data were processed

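The authors deposited 10x Genomics matrices of UMI counts per gene and antibody for each sex, with a table that ties each hashtag to a mouse. Per the labels, Cell Ranger 4.0.0 and STAR 2.5.1 with mm10 were used, whereas the file headers give 7.0.0 (male) and 3.1.0 (female). Barcodes were kept with over 200 genes, under 5% mitochondrial UMIs and a leading hashtag with at least 70% of hashtag UMIs. That kept 1226 of 1227 male and 7492 of 10433 female barcodes. The libraries shared 0 barcodes.

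Gene counts were summed per mouse over G2/M cells and over the other cells, and CPM used the sum over all genes. Age was tested with edgeR 4.0.16 (quasi-likelihood, TMM, filterByExpr, Benjamini-Hochberg adjustment, threshold 0.05) in R 4.3.3, with DESeq2 1.42.0 as an alternative. The G2/M by age term had the mouse as a block. Log2 differences per mouse used a prior count of 1. Shares and antibodies were tested by exact permutation with purpose-written functions using numpy 2.4.6, and scipy 1.17.1 gave the binomial intervals. The tests were also run on simulated data. Summed UMIs per mouse limit the precision, most of all in males.

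The cells, gene lists and tests were chosen with earlier results of these data known. Named genes were the 8 score genes, the 9 genes of the study, up to 6 most abundant genes per list, the 10 largest changes each way with age among called genes without overlap, and up to 5 genes with the smallest adjusted p for the G2/M by age term. The 10 largest differences each way outside the lists were also named. Other names were picked after their values were seen, as was the per-cell MHC-II spread. The alternatives were other hashtag limits and score limits, thinning, normalization, low-count filter, antibody scale and leaving out each mouse. A result on a further gene is not reported here.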

Additional observations from a re-analysis of the deposited data

Results flagged for a closer look

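In 48 groups of 5 mice a single mouse could stand apart by Dixon's ratio, which by chance happens in about 1 in 20 groups, and 4 did. AW112010 in the G2/M cells of old female mouse 1 was at 363 CPM, with the other 4 old females at 73.0 to 132 CPM. The median G2/M cell of a young female mouse held 16474 UMIs, with the other 4 at 15519 to 15783.5. One old male mouse had 30.6% of its cells among the G2/M cells, with the other 4 at 6.90 to 10.2%. CD11b on the G2/M cells of an old female mouse was at 58.5 UMIs per cell, with the other 4 at 38.6 to 43.0.

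The age effect in females differed between G2/M cells and the other cells, in the interaction test of edgeR, for 7 genes. These were S100a9 (3.01), Cd209a (1.46), S100a8 (1.36) and Fcgr1 (0.90), with a higher effect in G2/M cells, and Casc5 (-0.49), Tubb4b (-0.40) and Ube2c (-0.40), with a lower one. Ube2c is one of the 8 genes of the score that chose the G2/M cells, so its level in them was bounded by the choice and its term is given as a description.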

How the results depend on the processing

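In females the difference in share was -2.63 points with a leading hashtag of 90% (exact permutation p = 0.063, adjusted 0.13), -0.84 in the top 5%, 3.39 in the top 20% (exact permutation p = 0.095, adjusted 0.17), 0.90 both with a hashtag of 50% and after thinning, and -0.23 to 0.97 with 1 mouse left out. In males it was 8.36 in the top 20% (exact permutation p = 0.17), 2.08 to 5.0 under the other settings, and with 1 mouse left out it ran from -1.0, without old mouse 4, to 4.93. Antibodies called between G2/M and other cells numbered 3, and 5 as shares of the 6. Flt3 turned to -0.24 as a share and -0.040 relative to hashtags, CD115 to -0.12 as a share and -0.115 at matched depth, CD11b to 0.18 at matched depth, and MHC-II to 0.17 both there and as the median of log2(count + 1). MHC-II ran from -0.24 to 0.030 with 1 mouse left out. Between ages, Flt3 turned to 0.15, 0.29, 0.095 and 0.029 as a share, relative to hashtags, as a median and at matched depth, CD11b to 0.024, 0.16 and 0.014 as a share, relative to hashtags and at matched depth, Ly6C to 0.061 relative to hashtags, and CD115 to -0.038 at matched depth. With 1 mouse left out 0 to 2 antibodies passed, Flt3 ran from -0.57 to 0.45 and MHC-II from -0.021 to 0.91. With every cell thinned, the lower genes of female G2/M cells fell from 316 to 168 and the higher genes of males from 130 to 56, and the lower genes of males were 23 to 45 with 1 mouse left out. Age calls in females were 259 without a filter, 78 in the top 5%, 33 with a hashtag of 90%, and 54 to 147 with 1 mouse left out. In males they were 7 without a filter, 3 in the top 5%, 0 after thinning and with a hashtag of 90%, and 0 to 3 with 1 mouse left out, where Cd74 ran from -1.11 to 0.81. The G2/M by age term called 4 genes in DESeq2 and with a hashtag of 90%, 61 without a filter, 0 without the replicate block and 2 to 46 with 1 mouse left out in females. In males it called 1 with RLE, 11 without a filter, 2 in the top 5% and 0 to 3 with 1 mouse left out. The sex interaction called 1 in DESeq2, 10 without a filter and 0 to 1 with 1 mouse left out. The cause of these changes was not tested. No paired analysis was possible because old and young mice were different animals, so that the block stood only between the G2/M and other cells of a mouse.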

Other observations

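In the female library 2406 barcodes were left out by the hashtag limit alone, and 83 of them had a score at or above that of the lowest G2/M cell.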
